A study of Mus musculus with 5 samples.

Results

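Transcription factors of 15 developmental families were examined in sorted epithelial cells of the mouse mammary gland. The members are all rows of the deposited expression table whose symbol matches Cebp, Elf, Ehf, Fox, Gata, Hox, Irx, Klf, Meis, Nfi, Nr, Runx, Sox, Stat, Tbx or Tfap2 followed by the family's letter or number, without Sox9, Sox10, Elf5 and Klf6. This gave 90 genes of 12311 rows, and 75 of them had a mean level of at least 1 FPKM (fragments scaled by transcript length and library size) and were tested. A gene could reach that mean through a single population, so counts over the 75 describe these genes only. All 90 are annotated as protein-coding, and Foxa1 and Tbx3, the pair that marks the collection, are both in the table. One row, Nr2c2ap, encodes a receptor-associated protein and not a nuclear receptor. The rule also allows Zeb genes, but none was among the matching rows.

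RNA was sequenced from 5 libraries of about 50 sorted cells each. Donors in every group were adult virgin mice without ovaries that carried hormone pellets for 14 days. The hormones, the strain, the age and the alleles behind the fluorescent labels are not given in the sources used here. Luminal cells were Lin-, CD24+, CD29low and GFP+ (1 library), normal basal cells were Lin-, CD24+, CD29hi and TdTomato+ (2 libraries), and luminal-derived basal cells (LdBC) were Lin-, CD24+, CD29hi and GFP+ (2 libraries). The study asked how transcription differs among the populations. Whether a group's libraries were taken from different animals is not stated, so p-values measure only the spread between libraries, which may be technical. Only 1 luminal library was analysed, and it was assumed to vary like the others.

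Such families control cell identity by binding DNA in a sequence-specific way and recruiting coactivators or corepressors. In the mammary gland FOXA1 opens chromatin for the estrogen receptor, GATA3 maintains luminal differentiation, STAT5 carries the prolactin signal, and TBX3 is needed for the gland to form in the mouse embryo. C/EBP, NFI and epithelial ETS factors take part in the alveolar programme that leads to milk secretion.

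Promoters of 4 members are shown because these genes stand for 3 patterns described here: high in the luminal library (Foxa1), highest in LdBC (Stat6 and Foxi1), and found in basal cells while listed at 0 in LdBC (Irx4). The sequences run from 250 bases before to 50 after the RefSeq start on GRCm38.p6, in the direction of transcription, and capitals mark matches to the motifs searched.
Foxa1 promoter, chr12:57546062-57546361, minus strand: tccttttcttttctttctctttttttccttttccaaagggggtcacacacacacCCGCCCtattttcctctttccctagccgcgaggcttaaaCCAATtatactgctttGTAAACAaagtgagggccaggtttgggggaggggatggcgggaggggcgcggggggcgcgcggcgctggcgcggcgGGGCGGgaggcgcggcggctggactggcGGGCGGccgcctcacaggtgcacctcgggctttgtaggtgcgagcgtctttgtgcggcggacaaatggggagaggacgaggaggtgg
Stat6 promoter, chr10:127642736-127643035, plus strand: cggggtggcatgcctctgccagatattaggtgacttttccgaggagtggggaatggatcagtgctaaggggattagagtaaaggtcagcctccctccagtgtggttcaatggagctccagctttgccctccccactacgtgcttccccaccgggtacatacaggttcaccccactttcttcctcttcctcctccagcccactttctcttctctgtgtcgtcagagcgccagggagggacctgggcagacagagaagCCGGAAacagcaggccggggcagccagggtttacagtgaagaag
Foxi1 promoter, chr11:34208040-34208339, minus strand: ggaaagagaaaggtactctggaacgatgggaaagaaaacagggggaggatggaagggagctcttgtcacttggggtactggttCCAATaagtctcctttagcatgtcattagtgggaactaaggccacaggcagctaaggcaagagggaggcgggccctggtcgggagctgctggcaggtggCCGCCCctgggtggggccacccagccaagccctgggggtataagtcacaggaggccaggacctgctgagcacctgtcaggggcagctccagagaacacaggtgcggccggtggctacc
Irx4 promoter, chr13:73260247-73260546, plus strand: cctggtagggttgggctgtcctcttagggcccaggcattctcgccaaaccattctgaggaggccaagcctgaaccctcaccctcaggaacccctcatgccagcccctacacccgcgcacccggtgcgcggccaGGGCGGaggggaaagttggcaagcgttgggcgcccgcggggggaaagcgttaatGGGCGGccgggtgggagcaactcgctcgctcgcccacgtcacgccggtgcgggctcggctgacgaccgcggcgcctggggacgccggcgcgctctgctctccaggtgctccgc
Motifs were searched on both strands as exact letters. These were TATAAA for the TATA box, GGGCGG for the GC box, CCAAT for the box of that name, TGTTTAC for forkhead factors, CCGGAA for ETS factors and TTCNNNGAA for STAT factors. None of these motifs overlap each other in the 4 sequences. The Foxa1 window holds 3 GC boxes, 1 CCAAT box and 1 forkhead match, the Stat6 window 1 ETS match, the Foxi1 window 1 GC box and 1 CCAAT box, and the Irx4 window 2 GC boxes. The ratio of observed to expected CpG was 0.929 for Foxa1 and 0.828 for Irx4, and 0.325 for Stat6 and 0.232 for Foxi1.

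RefSeq windows were matched for 68 of the 90 members. A GC box stood in 60.3% of them, against 65.0% of 8736 windows of genes in the deposited table and 35.9% of all 27025 windows. An ETS match stood in 17.6%, against 27.7% and 15.2%, a CCAAT box in 36.8%, against 38.5% and 37.9%, and a TATA box in 11.8%, against 7.19% and 14.2%. A forkhead match was rare (2.94%, against 2.37% and 3.55%), as was a STAT match (5.88%, against 6.90% and 8.47%). No test was made of these shares, and the widest gap to the windows of the table's genes was that of the ETS match. A match is a description of letters and not a binding site.

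The luminal library held fewer detected genes than the others (8041 above 0, against 9201 to 10979), and 57 members were above 0 in it, against 68 and 79 in LdBC and 80 in each basal library. It listed 162 genes at 0 that had at least 10 FPKM in each of the other 4 libraries, 2 of them members (Irx2 and Nfix). The same count was 26 in LdBC replicate 1 and 0 to 5 in the rest. The part of this difference in detection in any member listed at 0 there was not tested, and with FPKM alone the depth is unknown. Together the members held between 0.243% and 0.335% of a library's summed FPKM. In summed marker levels, LdBC were near the luminal library for luminal markers and between the other populations for basal markers. The summed FPKM of Krt8, Krt18, Krt19 and Epcam was 21412 in the luminal library, 26104 and 23082 in LdBC, then 1042 and 838 in basal cells. That of Krt5, Krt14, Acta2 and Trp63 was 0, then 1130 and 1836, then 6854 and 6227.

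**Figure D1:**
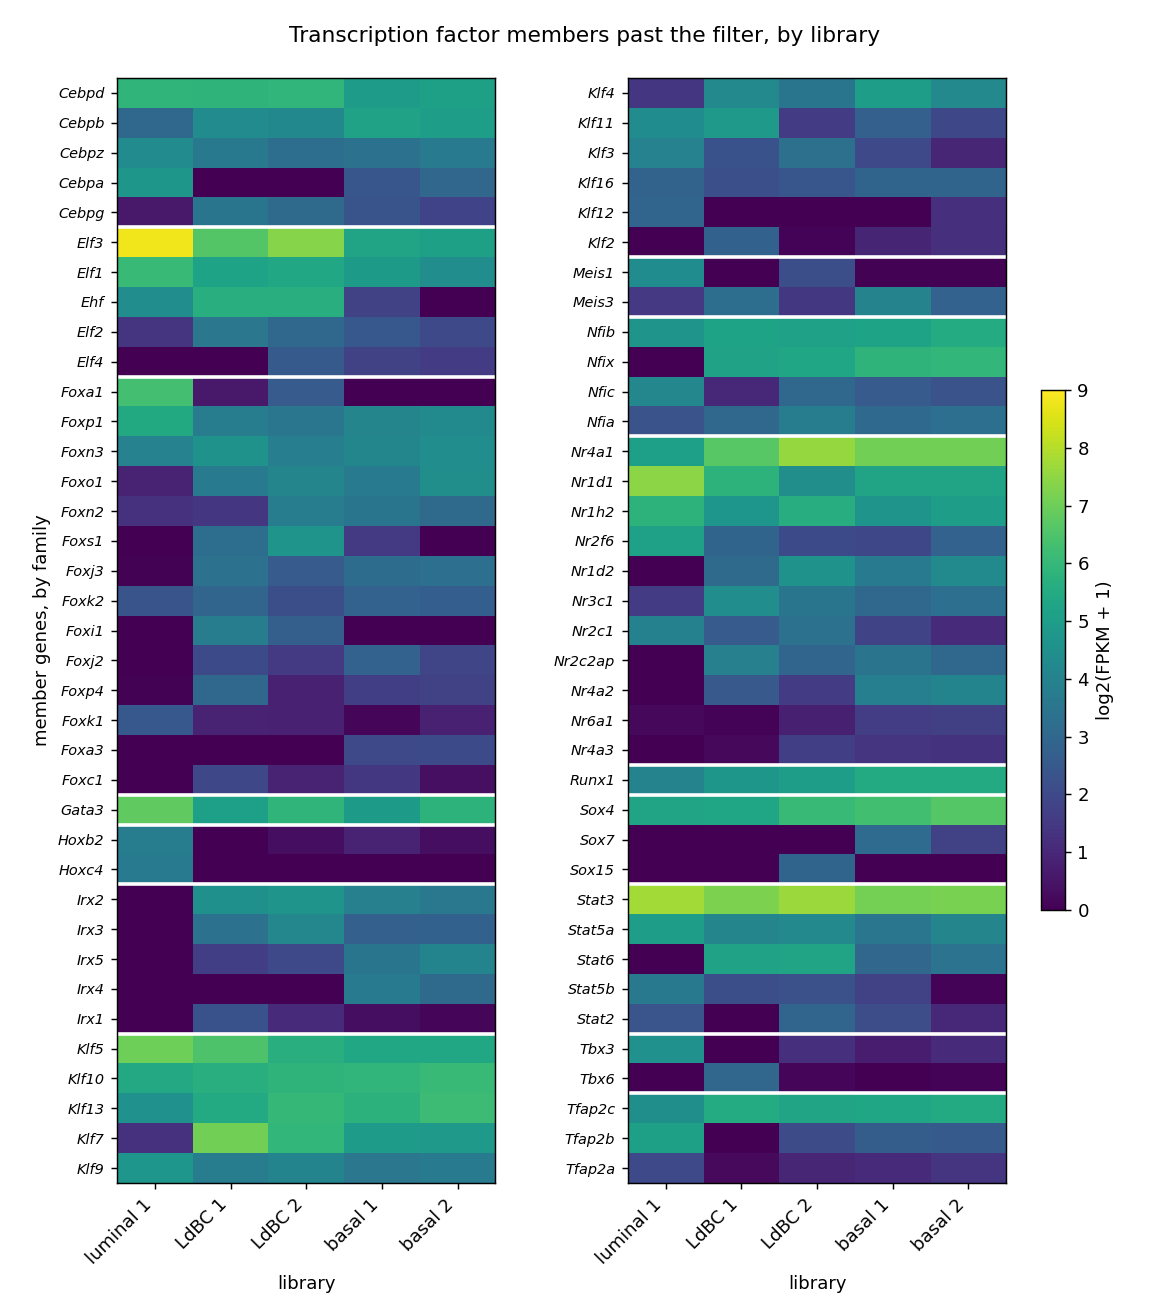
Level of 74 tested members (rows, grouped by family, white lines between families) in the 5 libraries (columns), as log2(FPKM + 1) on the colour scale from 0 (dark) to 9 (yellow). Elf3 in the luminal library is the brightest cell, at 443 FPKM, and the 5 Irx rows are all dark in that library, with Irx4 dark in LdBC as well.

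Across all families, no member passed the threshold between LdBC and basal cells, while a few did against the luminal library. In LdBC against basal cells limma with Benjamini-Hochberg adjustment called 0 of 75 members and 1 of 10626 genes (0.00941%). At an unadjusted p under 0.05, 7 members were higher in LdBC (9.33%, against 12.9% of all genes) and 7 lower (9.33%, against 7.12%). The LdBC pair lay wholly above the basal pair in 23 members (30.7%, against 30.5%), and wholly below in 17 (22.7%, against 18.6%). These shares are near the background, and scaling by median-of-ratios turned them to 16 above and 27 below, with 5 higher and 12 lower by unadjusted p. After quantile normalization they were 21 and 24, with 5 and 11 by unadjusted p. The background moved too. Over all 10626 genes, 3246 lay wholly above and 1973 wholly below as deposited. These became 2250 and 2897 under median-of-ratios scaling, and 2540 and 2709 after quantile normalization. The unadjusted counts also moved when LdBC replicate 2, basal replicate 1 or basal replicate 2 was left out. Such a fit leaves 1 library in that group, so it cannot show whether the counts rest on particular libraries. The median difference of the members was 0.00, beside 0.20 for all genes, and median-of-ratios scaling moved the median of all genes to -0.11.

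Against the luminal library, 5 members were called in LdBC (6.67%, against 4.01% of all genes) and 4 in basal cells (5.33%, against 8.31%), by limma with Benjamini-Hochberg adjustment. Nfix, Irx2, Stat6 and Klf7 were higher and Hoxc4 lower in LdBC, and Nfix and Irx2 were higher and Hoxc4 and Elf3 lower in basal cells. Unadjusted, 19 members were higher (25.3%, against 16.7%) and 14 lower (18.7%, against 14.5%) in LdBC, and 20 higher (26.7%, against 16.5%) and 18 lower (24%, against 21.6%) in basal cells. For basal cells the split was 26 higher and 7 lower under median-of-ratios scaling and 20 and 11 under quantile normalization, and for LdBC it was 20 and 10, and 15 and 11. Of the tested members 21 were listed at 0 in the luminal library (28%, against 27.1%). Median-of-ratios scaling, or no filter on low values, left 0 of the 5 calls in LdBC. No call remained, among members or among all genes, when LdBC replicate 1 or 2 or basal replicate 1 or 2 was left out. Such a fit leaves 1 library in that group, so it cannot show whether these calls rest on particular libraries. The median difference from luminal was 0.34 over the members and 0.01 over all genes in LdBC, and 0.41 and -0.13 in basal cells. Over genes with no group at 0, which keeps 52 members, the medians were below 0, at -0.60 for members and -0.63 for all genes in LdBC, and at -0.78 and -0.94 in basal cells. Median-of-ratios scaling moved the medians of all genes to 0.27 and 0.42. LdBC and basal cells are set against the same luminal library, so their results against it are not independent.

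Placed between the other populations, both LdBC libraries lay above all 3 other libraries in 12 members (16%, against 14.7% of all genes) and below them in 6 (8%, against 7.76%). They lay between luminal and basal with luminal higher in 10 members (13.3%, against 12.5%) and with basal higher in 7 (9.33%, against 5.42%). The 12 were Cebpg, Ehf, Elf2, Foxi1, Foxs1, Irx1, Irx2, Irx3, Klf7, Nr3c1, Stat6 and Tbx6, and Nr3c1 and Tbx6 left this set under median-of-ratios scaling. Among the 6 were Cebpa, Foxp1, Klf16, Tfap2a and Tfap2b. The 6 became 8 under median-of-ratios scaling and 10 under quantile normalization, where Tfap2a was no longer among them. Markers of other cells also differed between the libraries. The 4 fibroblast markers in the table summed to 305 FPKM in luminal, 29.5 and 67.1 in LdBC, then 279 and 273 in basal cells, nearly all of it Dcn. Mbp, the Schwann cell marker in the table, had 14.6, then 24.3 and 26.5, then 9.63 and 11.4. The 3 immune markers in the table summed to 0, then 9.14 and 6.10, then 13.1 and 1.10. These markers did not go together. Cd52 made up the LdBC sums and was listed at 0 elsewhere. Lyz2 was above 0 only in basal replicate 1, and Laptm5 only in basal replicate 2. The part of such cells in the members' values was not tested.

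**Figure D2:**
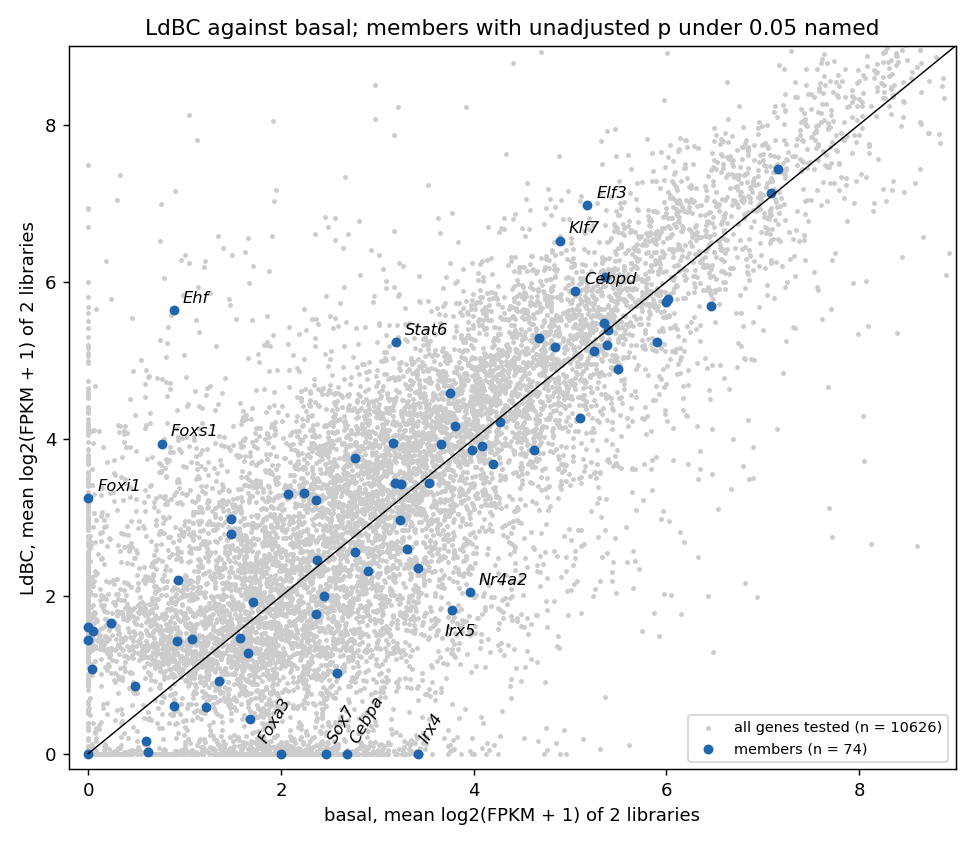
Mean log2(FPKM + 1) of the 2 basal libraries (x) and of the 2 LdBC libraries (y) for all 10626 tested genes (grey) and 74 members (blue), with the line of equal level. Axes end at 9, which leaves out 210 genes and 0 members. Of the members drawn, 13 with an unadjusted p under 0.05 are named, and Foxi1 lies on the left edge, listed at 0 in basal cells, while Irx4, Cebpa, Sox7 and Foxa3 lie on the lower edge, listed at 0 in LdBC.

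Foxa1 and Tbx3 were high in the luminal library and low in both CD29hi populations. Foxa1 had 78.7 FPKM in the luminal library, 0.529 in LdBC replicate 1 and 5.04 in LdBC replicate 2, while basal replicates 1 and 2 were both at 0. The luminal library stood above all others, and the LdBC libraries stood apart from each other. Foxa1 was lower in LdBC than in luminal cells by a log2 difference of -4.71 (SE 1.06), which did not pass in limma (Benjamini-Hochberg adjusted p = 0.0866). Tbx3 had 22.7 in the luminal library, 0 and 1.30 in LdBC, then 0.628 and 1.11 in basal cells. LdBC and basal libraries overlapped, with a difference of -0.29 (SE 0.63) and, in limma with Benjamini-Hochberg adjustment, an adjusted p of 0.842. Against the luminal library Tbx3 did not pass in LdBC (-3.97, SE 0.77, limma with Benjamini-Hochberg adjusted p = 0.0758) or in basal cells (-3.68, SE 0.77, adjusted p = 0.0653). In these sorted pools fewer cells that express a gene and less RNA per cell cannot be told apart.

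Gata3 did not share that pattern of near absence. It had 110 FPKM in the luminal library, 32.8 and 58.0 in LdBC, then 28.9 and 54.8 in basal cells. The LdBC and basal ranges overlapped almost wholly, and their difference of 0.13 (SE 0.49) did not pass in limma (Benjamini-Hochberg adjusted p = 0.92).

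AP-2 factors bind GC-rich elements in many epithelia. Tfap2b had 33.3 FPKM in the luminal library, 0 and 3.12 in LdBC, then 5.22 and 4.78 in basal cells, and LdBC was lowest of the 3 populations. Its difference from luminal was -4.08 (SE 1.08, limma with Benjamini-Hochberg adjusted p = 0.108). Tfap2c, the most abundant of the family, had 21.2, then 45.5 and 36.9, then 37.9 and 44.2, so that the luminal library was lowest and LdBC and basal cells overlapped as deposited. With median-of-ratios or quantile scaling the LdBC pair lay below the basal pair for Tfap2c. Tfap2a was at most 2.93 in any library.

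HOX genes carry positional identity, and MEIS proteins are their DNA-binding partners. Hoxc4 had 12.1 FPKM in the luminal library and was listed at 0 in all 4 others. It was called against LdBC (limma with Benjamini-Hochberg adjusted p = 0.0465) and against basal cells (adjusted p = 0.0369). The 4 values at 0 have no spread, so both p-values rest on spread taken from other genes and on the single luminal value. Hoxb2 had 13.1 in the luminal library, 0 and 0.254 in LdBC, then 0.828 and 0.253 in basal cells. It lay in the same order, with differences of -3.65 and -3.21 (SE 0.53 each) that did not pass in limma (Benjamini-Hochberg adjusted p = 0.0562 and 0.0518). Hoxb3 and Hoxb4 were under the level tested. Meis1 had 19.9 in the luminal library, 0 and 3.45 in LdBC and at most 0.0311 in basal cells. Meis3 ran the other way in level, with 1.83 in the luminal library, 8.59 and 1.76 in LdBC, then 15.3 and 6.05 in basal cells. Neither member separated LdBC from basal cells as deposited. After quantile normalization the LdBC pair lay above the basal pair for Meis1.

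**Figure D3:**
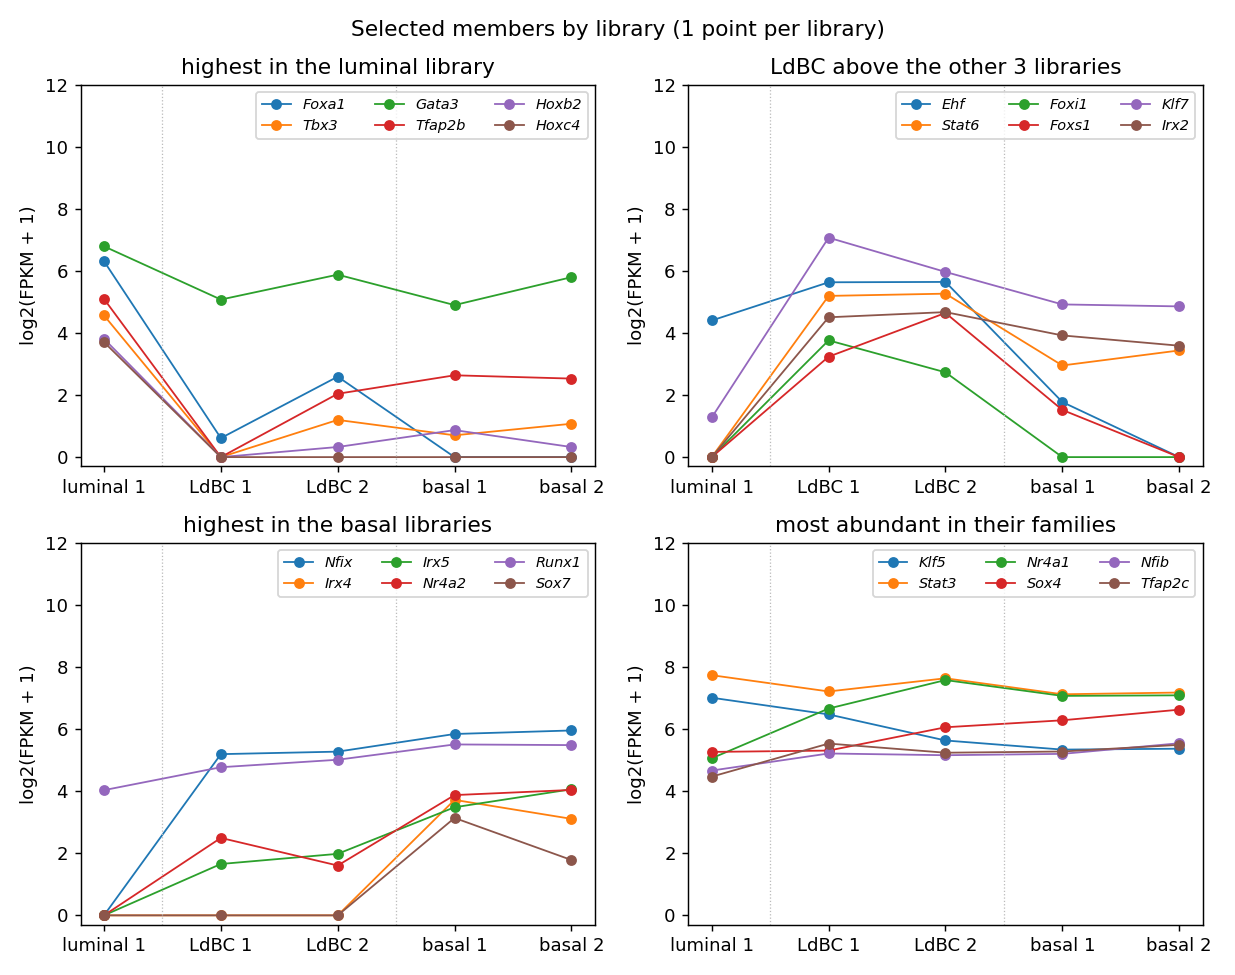
log2(FPKM + 1) (y) of 24 members in the 5 libraries (x), 1 point per library, in 4 panels by where the level was highest or by abundance. Lines only join the values of 1 gene and imply no order of libraries. Foxa1, Tbx3, Tfap2b, Hoxb2 and Hoxc4 are far lower in all other libraries than in the luminal one, while Gata3 stays above 28 FPKM everywhere, and Ehf, Stat6, Foxi1, Foxs1, Klf7 and Irx2 peak in LdBC.

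Elf and Ehf genes, which encode ETS factors, had higher levels in LdBC than in basal cells in most members, without passing the threshold. Of 5 Elf and Ehf genes, 4 had no overlap and a higher LdBC level, as 30.5% of all genes did. Among these 4, Ehf and Elf3 had an unadjusted p under 0.05, as 12.9% of all genes did in this direction, and 0 passed over all genes. Elf1 lost this order under median-of-ratios and quantile scaling. Ehf, an ETS factor of epithelia, had 20.2 FPKM in the luminal library, 48.8 and 49.2 in LdBC, then 2.43 and 0 in basal cells. LdBC stood highest of the 3 populations, and the difference from basal cells was 4.75 (SE 0.75, limma unadjusted p = 0.00429, Benjamini-Hochberg adjusted p = 0.123). Elf3, an epithelium-specific ETS factor, had 443 in the luminal library, 94.9 and 164 in LdBC, then 37.2 and 33.3 in basal cells. Here LdBC lay between the others, 1.79 above basal (SE 0.34, limma with Benjamini-Hochberg adjusted p = 0.129) and -1.82 from luminal (SE 0.42, adjusted p = 0.0888). Basal cells were lower than luminal by -3.62 (SE 0.42, limma with Benjamini-Hochberg adjusted p = 0.0391). Elf3 and Ehf thus differed in rank, Elf3 highest in luminal and Ehf highest in LdBC. Elf2 was low throughout (1.54, then 10.9 and 7.30, then 4.59 and 2.98), and Elf4 was listed at 0 in the luminal library and LdBC replicate 1. Of 11 other ETS genes tested, Ets2 was higher and Etv4 lower in LdBC than basal cells at an unadjusted p under 0.05. Over all genes 12.9% were higher and 7.12% lower. The median difference of the 11 was 0.33, beside 0.20 for all genes.

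STAT proteins carry cytokine and hormone signals from receptor to nucleus. Stat6, which acts downstream of interleukins 4 and 13, was listed at 0 in the luminal library and had 35.7 and 37.6 FPKM in LdBC, then 6.75 and 9.84 in basal cells. Both LdBC libraries exceeded all others, and the difference from basal cells was 2.04 (SE 0.41, limma unadjusted p = 0.00994, Benjamini-Hochberg adjusted p = 0.133). Against the luminal library Stat6 was called in LdBC (limma with Benjamini-Hochberg adjusted p = 0.0440) and not in basal cells (adjusted p = 0.0503), which does not show that these differ. Stat3, active in involution of the gland, was the most abundant, with 213, then 148 and 199, then 139 and 144. Stat5a, the main mediator of prolactin, had 31.7, then 15.9 and 17.9, then 10.5 and 15.9, and Stat5b had 11.4, then 3.52 and 3.69, then 2.42 and 0.0565. For all 3 the luminal library was highest as deposited, but for Stat3 median-of-ratios scaling put LdBC replicate 2 and both basal libraries above it. Of 24 tested genes of the JAK-STAT pathway outside the family, the interferon receptor gene Ifnar1 and the prolactin receptor gene Prlr were higher in LdBC than in basal cells at an unadjusted p under 0.05. Pias4, which inhibits STATs, and the suppressors Socs2, Socs4 and Socs5 were lower. The median of the 24 was -0.19, beside 0.20 for all genes, and 0 passed over all genes. Of all genes, 12.9% were higher and 7.12% lower at that unadjusted threshold.

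C/EBP members took different places in LdBC. Cebpa, a factor of differentiation that halts proliferation, had 26.2 FPKM in the luminal library and 4.34 and 6.75 in basal cells, and was listed at 0 in both LdBC libraries. LdBC against basal cells had an unadjusted limma p under 0.05 and a Benjamini-Hochberg adjusted p of 0.128, and against luminal the adjusted p was 0.0507. Cebpb, required for alveolar development in the mouse, had 7.0, then 19.1 and 17.3, then 35.3 and 31.6, and LdBC lay in between. Basal cells exceeded luminal by 2.10 (SE 0.36, limma with Benjamini-Hochberg adjusted p = 0.0534). Cebpd, induced in acute-phase responses, had 58.4, then 57.1 and 59.2, then 30.8 and 33.5. LdBC differed from luminal by -0.01 as deposited and lay above it under both other scalings. It exceeded basal cells by 0.84 (SE 0.22, limma unadjusted p = 0.0223, Benjamini-Hochberg adjusted p = 0.174). Cebpg had 0.523, then 10.4 and 7.61, then 4.03 and 2.49.

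Iroquois (Irx) genes, homeobox genes of the TALE class, were all listed at 0 in the luminal library and were all above 0 in basal cells. Irx1, Irx2 and Irx4 lie in 1 cluster on chromosome 13 (Irx1 at 71957921 to 71963723, Irx2 at 72628820 to 72634198 and Irx4 at 73260479 to 73269608) and Irx3 and Irx5 in another on chromosome 8. Irx1 and Irx2 shared an order of levels, from which Irx4 in the same cluster differed, and Irx3 and Irx5 differed from each other. The luminal values come from the library with the fewest detected genes. Irx4 had 12.2 and 7.64 FPKM in basal cells and 0 in each LdBC library (limma unadjusted p = 0.00253, Benjamini-Hochberg adjusted p = 0.123). Its neighbour Irx2 had 21.8 and 24.6 in LdBC, then 14.2 and 11.1 in basal cells, LdBC highest. Against the luminal library Irx2 was called in LdBC (limma with Benjamini-Hochberg adjusted p = 0.0469) and in basal cells (adjusted p = 0.0433). Irx1 was low, with 3.79 and 1.10 in LdBC, beside 0.264 and 0.0965 in basal cells. In the other cluster Irx5 had 2.15 and 2.95 in LdBC, then 10.2 and 15.7 in basal cells, a difference of -1.96 (SE 0.52, limma unadjusted p = 0.0233, Benjamini-Hochberg adjusted p = 0.178). Irx3 had 9.33 and 16.9 against 5.71 and 5.92 (1.00, SE 0.53, limma with Benjamini-Hochberg adjusted p = 0.41). In each cluster a gene at a higher level in basal cells lay beside one at a higher level in LdBC. The LdBC and basal libraries overlapped in none of the 5 genes, also under both other scalings, where 30.5% of all genes lay wholly above and 18.6% wholly below as deposited.

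**Figure D4:**
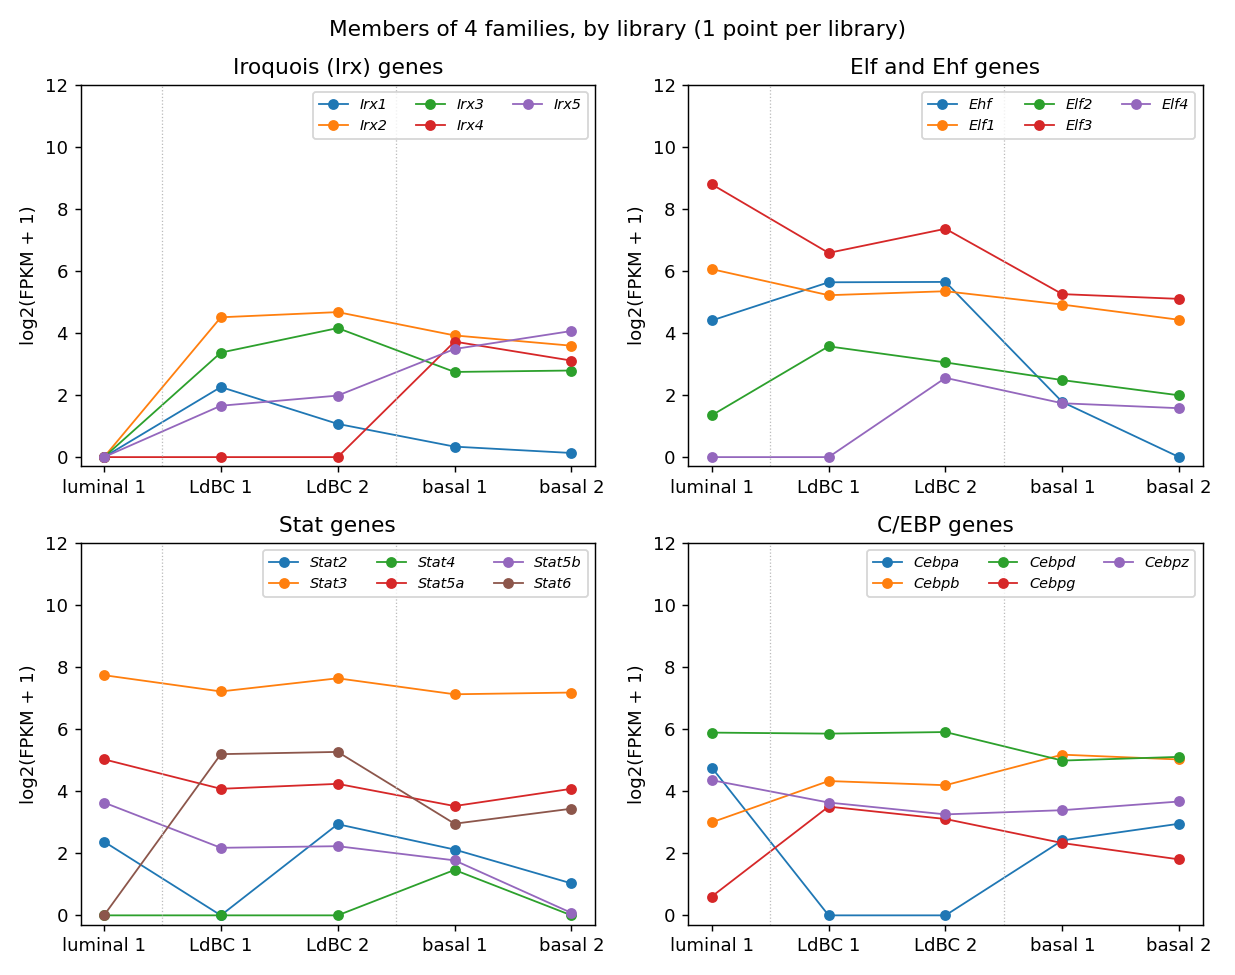
log2(FPKM + 1) (y) of Irx, Elf or Ehf, Stat and C/EBP genes in the 5 libraries (x), 1 point per library, lines joining the values of 1 gene only. Irx4 and Cebpa are at 0 in both LdBC libraries while Irx2, Ehf and Stat6 are highest there.

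Among forkhead genes, Foxi1 and Foxs1 had their highest levels in LdBC, at low abundance. Foxi1, which directs proton-transporting cells of the kidney, inner ear and airway, had 12.6 and 5.65 FPKM in LdBC and was listed at 0 in the 3 other libraries. It did not pass against basal cells (limma with Benjamini-Hochberg adjusted p = 0.124) or luminal (adjusted p = 0.0799). Foxs1, described in sensory neurons of the mouse embryo, had 8.43 and 24.1 in LdBC, then 1.87 and 0 in basal cells, with 0 in luminal. Its difference from basal cells was 3.18 (SE 0.89, limma unadjusted p = 0.0272, Benjamini-Hochberg adjusted p = 0.188). In both genes the LdBC libraries stood above every other library, and each differed more than 2-fold between the LdBC libraries, in opposite directions. The summed level of 5 pericyte markers was 6.46 and 15.9 in LdBC, beside 25.1 and 19.5 in basal cells and 0 in luminal. Of these markers Notch3 had the order of Foxs1, with 6.46 and 8.47 in LdBC, then 0.201 and 0.0115 in basal cells, and 0 in luminal. Rgs5 went the other way, with 0 and 5.24 in LdBC and 20.8 and 16.1 in basal cells. Des and Cspg4 were also lower in LdBC than in basal cells, and Pdgfrb overlapped between them. The part of pericytes in the values of Foxs1 was not tested. Foxa3, a relative of Foxa1, had 2.99 and 3.03 in basal cells and was listed at 0 elsewhere. Foxp1, a repressor, had 42.8 in luminal, 13.0 and 10.7 in LdBC, then 16.2 and 18.8 in basal cells. Foxo1, a target of insulin signalling, was low in luminal (0.840) and had 12.5 and 15.9 in LdBC, then 12.3 and 20.8 in basal cells. The LdBC libraries disagreed for Foxn2 (1.69 in the first, 12.7 in the second), which had 10.3 and 7.74 in basal cells.

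Krüppel-like factors bind GC-rich promoter elements. Klf7 had 1.43 FPKM in luminal, 134 and 61.7 in LdBC, then 29.3 and 28.0 in basal cells. LdBC was highest, called against luminal (5.25, SE 0.59, limma with Benjamini-Hochberg adjusted p = 0.0493) and not against basal (1.63, SE 0.48, adjusted p = 0.20). For Klf5, a factor of proliferating epithelia, the luminal library was highest, with 129, then 88.2 and 48.8, then 39.6 and 40.4. The LdBC libraries lay above basal for Klf5 as deposited and overlapped with basal under both other scalings. Klf4, a barrier and growth-arrest factor, had 1.66, then 17.9 and 10.2, then 31.8 and 17.7, and Klf10 and Klf13 were at 22.5 or more in every library. The LdBC values of Klf11 were 28.6 in replicate 1 but 1.94 in replicate 2, so its LdBC level rests on 1 library.

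Most tested NFI, RUNX and SOX factors had their highest levels in basal cells, and Nfia, Nfic and Sox15 were the exceptions. Nfix was listed at 0 in luminal and had 35.7 and 37.8 FPKM in LdBC, then 56.6 and 61.3 in basal cells. Both CD29hi populations were called against luminal (limma with Benjamini-Hochberg adjusted p = 0.0440 for LdBC and 0.0349 for basal), and LdBC lay below basal by -0.67 (SE 0.28, adjusted p = 0.312). Nfib, a factor of milk gene expression, had 24.4, then 36.3 and 34.8, then 35.9 and 45.8. Runx1, a regulator of blood and epithelial lineages, had 15.4, then 26.4 and 31.4, then 44.6 and 43.9. Its LdBC level lay between the others, -0.60 from basal (limma with Benjamini-Hochberg adjusted p = 0.319). Sox4 had 37.6, then 38.8 and 65.9, then 77.2 and 98.2. Sox7, known from endothelium, had 7.82 and 2.45 in basal cells and was listed at 0 in all 3 others (limma unadjusted p = 0.0191, Benjamini-Hochberg adjusted p = 0.164). The summed level of 4 endothelial markers was 142 in basal replicate 1 and 0.0169 in basal replicate 2, at 0.0493 in luminal and 3.88 and 0.535 in LdBC. Sox7 was higher in the basal library with the high marker level and was also above 0 in the other, and the part of endothelial cells in its values was not tested.

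Nuclear receptors included a pair of paralogues in opposite order. Nr1d1, a clock repressor (REV-ERB alpha), had 173 FPKM in luminal, 54.9 and 20.8 in LdBC, then 36.8 and 37.2 in basal cells, whereas its paralogue Nr1d2 was listed at 0 in luminal with 7.75 and 23.0, then 11.8 and 18.5. Against luminal, Nr1d1 differed by -2.32 for LdBC and -2.20 for basal cells, neither passing in limma (Benjamini-Hochberg adjusted p = 0.123 and 0.108). Of 13 other clock genes, Cry1 was higher and Tef lower in LdBC than basal cells at an unadjusted p under 0.05. Over all genes 12.9% were higher and 7.12% lower. Nr4a1, an immediate early receptor, was the most abundant, with 32.5, then 101 and 191, then 134 and 136. Nr4a2 was listed at 0 in luminal, with 4.65 and 2.05 in LdBC, beside 13.7 and 15.5 in basal cells (-1.91, SE 0.56, limma unadjusted p = 0.0319, Benjamini-Hochberg adjusted p = 0.201). Of 18 immediate early genes outside the families, 0 had an unadjusted p under 0.05 between LdBC and basal cells. Their median difference was -0.09, beside 0.20 for all genes. Their FPKM summed to 6137 in the luminal library, to 3257 and 4503 for LdBC, and to 4381 and 4427 for basal. Nr3c1, the glucocorticoid receptor, had 2.07, then 20.2 and 10.3, then 7.22 and 8.71. Highest in luminal as deposited were Nr2f6, an orphan receptor, with 34.2, then 6.51 and 3.05, then 2.83 and 6.04, and Nr1h2, the oxysterol receptor LXR beta, with 55.6, then 25.7 and 47.4, then 24.0 and 32.0. Median-of-ratios scaling put LdBC replicate 2 and basal replicate 2 above the luminal library for Nr1h2. Of 10 other nuclear receptor genes, 1 (Rarg) was higher and 0 lower in LdBC than basal cells at an unadjusted p under 0.05. The shares over all genes are those given beside the clock genes.

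Partners and neighbours of these factors were mixed. In LdBC against basal cells, 32 partner and cofactor genes were tested. At an unadjusted p under 0.05, 4 were higher (Cited1, Cited2, Ncoa7 and Tle2) and 3 lower (Ncoa4, Ncoa6 and Tle1). The median difference of the 32 was 0.07, beside 0.20 for all genes, of which 12.9% were higher and 7.12% lower. Of 10 other factors of epithelial to mesenchymal transition, Esrp2, an epithelial splicing factor, was higher and the repressors Snai1 and Snai2 were lower, with a median of 0.61. None of the genes in these lists, nor in the ETS, clock, receptor, immediate early and JAK-STAT lists, passed over all genes in limma with Benjamini-Hochberg adjustment between LdBC and basal cells. Against luminal, the adjusted calls were 1 lower of 32 partner genes, 2 higher of 18 immediate early genes, and 1 higher and 1 lower of 10 transition factors in LdBC, where 4.01% of all genes were called. In basal cells they were 2 lower, 2 higher, and 1 higher and 1 lower, with 1 lower of 24 JAK-STAT genes, where 8.31% of all genes were called.

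The remaining 15 members were below a mean of 1 FPKM: Foxj1, Foxo3, Foxq1, Hoxb3, Hoxb4, Nr2c2, Nr2f2, Nr3c2, Runx2, Sox5, Sox6, Sox8, Stat4, Tbx2 and Tfap2e. Genes named here outside the naming rule, such as Gata3, Cebpb, Foxa3, Irx1, Irx3, Nr2f6 and Runx1, were added after their values were seen, to complete their families.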

How the data were processed

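Values were deposited by the authors as log2(FPKM + 1) for each gene in each library. The log base and the offset were inferred from the numbers themselves. TopHat2 2.0.4, Cufflinks 2.0.2, Cuffdiff 2.0.2 and mm10 are named in the submitters' processing notes, with no annotation given in the sources used here. How fragments of near-identical or overlapping genes were divided is not given either, and the labels name no molecular identifiers or strand. The lowest maximum FPKM of any gene is 1.0003. Values were turned back to FPKM, and 18 date-named rows (0.085% to 0.119% of summed FPKM) were left out.

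limma 3.58.1 (R 4.3.3) with an intensity trend fitted 3 group means to log2(FPKM + 1) of all 5 libraries, over the 10626 genes whose mean FPKM reached 1, with 2 residual degrees of freedom and a prior of 1.65. Two-sided p-values were adjusted by Benjamini-Hochberg over all genes tested, and adjusted values under 0.05 are named calls. Differences use the log2(FPKM + 1) scale, on which changes of low genes look smaller than they are. Against a group at 0 no difference is printed. Depth is unknown, as FPKM carries no counts, so no counting interval is given.

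Members, families, gene lists and tests were chosen with earlier results of these data known. Named were Foxa1, Tbx3, per comparison and direction up to 6 members with the largest difference among those with no overlap and a higher group mean of at least 5 FPKM, the most abundant member of each family of 3 or more rows, and the 5 members whose LdBC libraries differed most. One member, counted in the totals, is not reported here. Alternatives were the pseudocount, the filter, scaling, trend, replicate block and each library left out. Promoters came from RefSeq (GRCm38.p6), gene positions from the annotation of the same assembly.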

Additional observations from a re-analysis of the deposited data

How the results depend on the processing

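Counts are of all genes, then of members called, and of members at an unadjusted p under 0.05 (higher, lower). LdBC against basal: the 1 called gene became 0 with a pseudocount of 0.1, without trend or with a replicate block, 2 at a mean FPKM of at least 5 and 17 with quantile normalization. Members lower became 3 at that filter, 12 (median-of-ratios) and 11 (quantile). With 1 library left out, 0 genes were called, and 1 to 11 members were higher and 5 to 13 lower. LdBC against luminal: the 426 genes became 1175 (pseudocount 0.1), 4 (no filter or median-of-ratios), 788 (mean FPKM of at least 5) and 647 (no trend). The 5 members became 12 (pseudocount 0.1), 0 (no filter or median-of-ratios) and 3 (quantile), and members lower 8 at the stricter filter. With 1 library left out, 0 genes and 0 members were called, with 6 to 24 higher and 8 to 13 lower. Basal against luminal: the 883 genes became 1826 (pseudocount 0.1), 488 (no filter) and 1621 (mean FPKM of at least 5), the 4 members 18, 13 (stricter filter) and 8 (quantile), and members lower 11 (pseudocount 0.1 or quantile) and 7 (median-of-ratios). With 1 library left out, 0 and 0 were called, with 10 to 27 higher and 7 to 18 lower. Causes were not tested. Tbx3 turned to 0.31 in LdBC against basal without LdBC replicate 1 (limma with Benjamini-Hochberg adjusted p = 0.613) and was -0.89 without LdBC replicate 2. No other reversal was seen among members named for the size of a difference, each followed in the comparison that named it. Members named only for abundance or for unlike LdBC libraries were not followed in this way. Deviations of same-numbered LdBC and basal libraries from their group means had a correlation of 0.01 over genes. With 2 libraries per group this is 1 value, and it cannot show whether libraries share an animal or day. The replicate block left 5 members higher and 5 lower, 0 called. The 2 residual degrees of freedom and the single luminal library limit every call.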

Other observations

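Some genes of proton-transporting cells, and Kit, were looked up after the values of Foxi1 were seen. Atp6v1b1, a subunit of the proton pump that acts in such cells, had 15.5 FPKM in the luminal library, 406 and 189 in LdBC and 0.970 and 1.15 in basal cells, so both LdBC libraries were highest, as for Foxi1. Kit, a receptor found on luminal progenitors of the mouse gland, had 14.4 and 4.36 in LdBC, with 0 listed for the 3 other libraries. Both LdBC libraries lay above all 3 others in 14.7% of all genes tested. Cftr, a chloride channel of airway ionocytes, had 7.57 in LdBC replicate 2 and was listed at 0 elsewhere, including LdBC replicate 1. Ascl3, another factor of such cells, had 3.40 in basal replicate 1 and was listed at 0 in all others.

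Cited1, a coactivator of hormone-responsive luminal cells, had 482 in the luminal library, 9.63 and 66.3 in LdBC, and 0 in each basal library, an order shared with Foxa1. Spdef, an ETS factor of luminal cells, had 59.3 in the luminal library, 0 and 4.98 in LdBC and 0 and 1.22 in basal cells. In both genes, as in Foxa1, LdBC replicate 2 was above LdBC replicate 1. Cited4, from the same partner list as Cited1, had 80.3 in the luminal library and 0 in each basal library. It went the other way in LdBC, with 12.8 in replicate 1 and 0 in replicate 2. LdBC replicate 1 also held fewer detected genes (9201 above 0, against 10627 in LdBC replicate 2).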
